A study of Homo sapiens with 6 samples.

Results

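The high mobility group (HMG) protein mRNAs described here are those of HMGB1, HMGB2, HMGB3, HMGN1, HMGN2, HMGN3, HMGN4 and HMGA1. They were taken by symbol from the gene names in the tables of cross-link positions, and they are 8 of the 22125 genes with a position in either cell line. All 8 had positions in both lines. The RNA bound by eIF4B, a cofactor that stimulates the RNA helicase eIF4A during translation initiation, was mapped by iCLIP in the DLBCL cell line DoHH-2 and the control B-cell line GM01953. In iCLIP the protein is fixed to RNA by UV light, and each cDNA stops next to the cross-linked nucleotide. Both lines were treated alike, with the same number of cells, 150 mJ/cm2 UVC, 0.6 U RNase I and 10 µg of antibody against eIF4B, and no treatment or transgene is named for either. DoHH-2 has 4 labelled replicates and GM01953 has 2, and the replicates were pooled within each line. The lines are not isogenic.

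HMG proteins are abundant non-histone proteins of chromatin. The HMGB proteins carry HMG boxes that bend DNA and end in an acidic tail, and HMGB1 and HMGB2 assist the RAG recombinase in lymphoid cells. Outside the cell HMGB1 acts as a danger signal through receptors such as AGER and TLR4. The HMGN proteins bind nucleosomes and loosen chromatin, and HMGA1 binds AT-rich DNA through its AT-hooks.

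Stretches of 30 nt of mRNA with many counts are shown first because the results below turn on where on these mRNAs eIF4B was found. Each is written 5′ to 3′ as DNA letters of GRCh38 in the sense of the mRNA, and capitals mark nucleotides that held at least 10% of the stretch's counts. For HMGB1 the 5′ UTR stretch is at chr13:30465904-30465933 and the 3′ UTR stretch at chr13:30461145-30461174, both on the minus strand.
HMGB1 5′ UTR: gttacagagcggaGagaGtgaggaggctgc
HMGB1 3′ UTR: ctggtggtaTTTTCaatagccactaacctt
For HMGB2, on the minus strand, the stretch after the stop codon is at chr4:173332040-173332069, and the 3′ UTR stretches are at chr4:173331734-173331763 and chr4:173332000-173332029. All are from DoHH-2.
HMGB2 after the stop codon: tttaatgatgcGtgtggaatgtgtgtGtgt
HMGB2 distal 3′ UTR: gttttttaggatgttgcatTtcgttttttt
HMGB2 proximal 3′ UTR: tTattTtgctaagaatgtgaaTtcaagtgc
For HMGB3 the densest stretch is in the 3′ UTR at chrX:150988536-150988565, plus strand.
HMGB3 3′ UTR: ggtcagctggcatgagaatAtttttttTtT
Those of HMGN1 at chr21:39349003-39349032 on the minus strand and HMGN2 at chr1:26472518-26472547 on the plus strand are in the 5′ UTR. That of HMGN3 at chr6:79234584-79234613 on the minus strand and that of HMGN4 at chr6:26545169-26545198 on the plus strand lie just before the start codon.
HMGN1 5′ UTR: gtgGcagcggcaaggcagcccaGTtTcgcg
HMGN2 5′ UTR: gaagaggcgagaacgacccccgGaccgacc
HMGN3 before the start codon: cgccagcagttccagtccgTtgctTTaCtt
HMGN4 before the start codon: caggactGCtcaaGcCacctgcgaacacTG
HMGA1, on the plus strand, had its densest DoHH-2 stretch in the 3′ UTR at chr6:34245859-34245888 and its densest GM01953 stretch in the 5′ UTR at chr6:34237247-34237276. The HMGN2 stretch with the most GM01953 counts, in the 3′ UTR at chr1:26475232-26475261, is shown beside them because it differs from that in DoHH-2.
HMGA1 3′ UTR, DoHH-2: tgtgttGtTttttgttcaatgttccattcT
HMGA1 5′ UTR, GM01953: GtCctcagcgcccagcaccgccgctcccgG
HMGN2 3′ UTR, GM01953: aGaattttgttttaCttttttTtttttttt

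There were 2033156 cDNA counts in DoHH-2 and 167197 in GM01953. Counts were scaled to a total of 1000000 per line (CPM), and a gene without a count could reach 1.48 CPM in DoHH-2 and 17.9 CPM in GM01953, which is what 3 counts amount to. Since replicates were pooled, each value is single, and no SD or test between the lines can be given. All intervals are exact 95% intervals that cover counting error only. Of the B-cell markers, 6 of 6 had counts in both lines (888.8 and 3810 CPM in sum), and the T-cell, myeloid and erythroid markers, including CD3E, LYZ and HBB, were at 0 in both. Of the epithelial markers only EPCAM had counts, 2 in DoHH-2.

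Together the 8 mRNAs held 5167 counts in DoHH-2, or 0.254% of all counts (0.247–0.261), and 388 in GM01953, or 0.232% (0.210–0.256). The intervals of the summed share overlapped, while those of its makeup did not. The summed share was further apart at positions with an FDR below 0.05, at 0.447% in DoHH-2 and 0.270% in GM01953, and at positions with at least 2 counts, at 0.380% and 0.221%. Both filters depend on depth, which differed between the lines. The share was 0.300% and 0.258% of counts outside histone genes and 0.283% and 0.276% of counts assigned to a gene. On sequence with a single copy in the genome it was 0.200% and 0.202%. HMGB1 and HMGB2 gave 76.0% of all counts of the 8 in DoHH-2 (74.8–77.1) and 46.1% in GM01953 (41.1–51.2). The mRNA level was not measured in these files, so more binding per mRNA and more mRNA cannot be told apart in any value below.

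HMGB2 was the most bound of the 8 in both lines. It had 2274 counts in DoHH-2 (1118 CPM, 1073–1165) and 146 in GM01953 (873 CPM, 737–1027), and ranked 62 among coding genes in each, of 12869 and of 9913. HMGB1 had 1651 counts in DoHH-2 (812 CPM, 773–852) and 33 in GM01953 (197 CPM, 136–277), and ranked 86 and 689. The ratio of DoHH-2 over GM01953 was 4.11 for HMGB1 (2.92–6.00) and 1.28 for HMGB2 (1.08–1.52), and both intervals lie above 1. Within a line, which needs no scaling between them, there were 0.726 HMGB1 counts per HMGB2 count in DoHH-2 (0.681–0.774) and 0.226 in GM01953 (0.150–0.332). HMGB1 thus stood higher against its close paralogue in the lymphoma line. HMGB3, the third member with this architecture, had 189 and 13 counts, with a ratio of 1.20 whose interval (0.682–2.29) spans 1.

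HMGA1 lay on the other side. It had 352 counts in DoHH-2 (173 CPM, 156–192) and 92 in GM01953 (550.2 CPM, 444–675), which was 3.18 times as much in GM01953 (2.50–4.01), and its rank among coding genes was 864 and 122. HMGN2 had 224 and 45 counts, or 110.2 and 269 CPM, and was 2.44 times as high in GM01953 (1.73–3.38). HMGN3 had 143 and 27 counts, or 70.3 and 161 CPM, a ratio of 2.30 in the same direction (1.46–3.48). HMGN1 had 171 and 19 counts, and HMGN4 163 and 13. The ratio of DoHH-2 over GM01953 was 0.740 for HMGN1 (0.460–1.26) and 1.03 for HMGN4 (0.586–1.98), and both intervals span 1. The order differed accordingly, with HMGB2, HMGB1 and HMGA1 leading in DoHH-2 and HMGB2, HMGA1 and HMGN2 in GM01953.

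**Figure D1:**
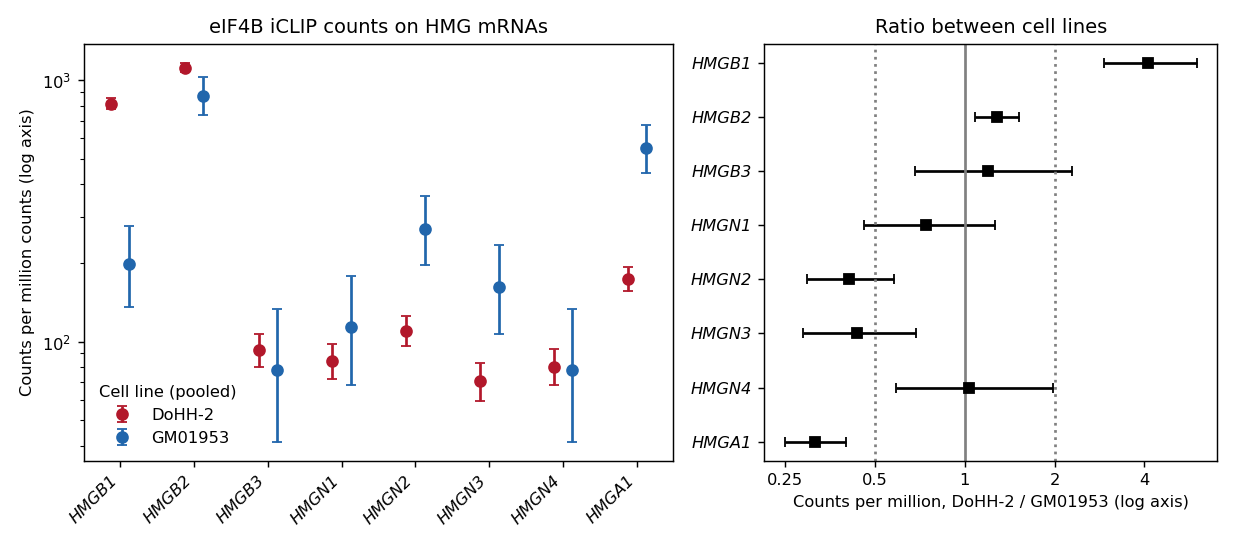
CPM of each HMG mRNA in the pooled DoHH-2 and GM01953 tables (left, log axis) and their ratio (right, log axis, dotted lines at 2-fold), with bars for 95% counting intervals. HMGB1 lies to the right of 2-fold, while HMGN2, HMGN3 and HMGA1 lie to the left of the other 2-fold line.

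A difference past 2-fold in CPM was counted in 4 of the 8, with HMGB1 higher in DoHH-2 and HMGN2, HMGN3 and HMGA1 higher in GM01953. Among the 10338 genes with at least 20 counts in both lines together, 47.6% were past 2-fold, 32.9% towards DoHH-2 and 14.7% towards GM01953. These shares depend on the minimum count. Over the 2961 genes with at least 13 GM01953 counts, the lowest number among the 8, a filter that by itself favours genes high in GM01953, 35.1% were past 2-fold, 5.88% towards DoHH-2 and 29.2% towards GM01953, and the median ratio of DoHH-2 over GM01953 was 0.778. The median ratio of the 8 was 0.886, and that of all 10338 genes was 1.29. The interval lay above 1 for 2 of the 8, where 18.5% of all genes tested did so, and below 1 for 3 of the 8, where 14.6% did. When only positions with at least 2 counts were kept, HMGB1 was 6.81 and HMGB2 2.23 times as high in DoHH-2, and the interval of HMGN2 (0.456–1.06 for DoHH-2 over GM01953) spanned 1. At positions with an FDR below 0.05 HMGN2 was 1.83 times as high in GM01953 and HMGB2 2.07 times as high in DoHH-2, so that both changed their side of 2-fold, as did HMGN4, which had no GM01953 count at such positions.

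Per kb of mRNA the order changed, since HMGB1 has a 3′ UTR of 4653 nt and HMGB2 one of 704 nt. HMGB2 had 756 CPM per kb in DoHH-2 and 602 in GM01953. HMGB1 had 133 and 32.9, and in GM01953 it was below HMGN3, HMGN1 and HMGN4, which it exceeded by CPM. This order depends on the length used for HMGB1, which was 5456 nt. Its last GM01953 count was at nt 2289, and another annotated HMGB1 transcript ends at nt 2310. A value per kb of that transcript was not computed. HMGA1 had 79.9 and 283, and in DoHH-2 HMGB2, HMGB1 and HMGA1 led by either measure. HMGB3 was lowest of the 8 on this scale, with 23.6 in DoHH-2 and 8.53 in GM01953. HMGN2 and HMGN3 had 50.7 and 65.7 in DoHH-2, against 139 and 156 in GM01953, while HMGN1 had 46.1 and 61.2 and HMGN4 38.5 and 40.0.

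Positions with an iCount FDR below 0.05 are called sites, and a bound gene is one with over 20 counts at them. All 8 were bound in DoHH-2, where 22.0% of genes with a position were, and 4 of 8 in GM01953, where 7.28% were. HMGB1 had 1418 counts at 361 sites and HMGB2 1841 at 273 sites in DoHH-2. In GM01953 HMGB2 had 93, HMGA1 59, HMGN2 35 and HMGB1 26 counts at sites. HMGN3, with 20 counts at sites, fell just outside the limit, followed by HMGN1 with 12, HMGB3 with 6 and HMGN4 with 0.

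Most counts of the shallow GM01953 profile of HMGB1 and HMGB2 lay where DoHH-2 also had a count. Heights are not compared by this measure, and the highest HMGB2 nucleotide in DoHH-2, with 58 counts, had 0 in GM01953. Of the GM01953 counts, 87.9% for HMGB1 and 87.7% for HMGB2 were at a nucleotide that also had a DoHH-2 count. It was 63.2% for HMGN1, 57.8% for HMGN2, 55.4% for HMGA1, 46.2% for HMGN4, 33.3% for HMGN3 and 30.8% for HMGB3. Within 3 nt other members came close, at 89.5% for HMGN1, 82.6% for HMGA1 and 76.9% for HMGN4, beside 100% for HMGB1 and 97.9% for HMGB2. HMGN2 had 62.2%, HMGN3 48.1% and HMGB3 30.8%. As a share of the DoHH-2 counts, the nucleotides shared with GM01953 held 18.5% for HMGB1, 21.5% for HMGB2 and 13.1% for HMGA1. These shares depend on how many DoHH-2 positions each mRNA has, which were 571 for HMGB1, 541 for HMGB2 and 92 for HMGN3. The highest HMGB1 nucleotide was the same in both lines, a U in the 3′ UTR at position 30461163 of chromosome 13, with 61 counts in DoHH-2 and 5 in GM01953. That nucleotide is followed by a sequence with 2 further copies in the genome.

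On the mRNA, positions were divided into 5′ UTR, 50 nt to each side of the start codon, CDS, 50 nt to each side of the stop codon, and 3′ UTR. The MANE Select transcript was used, except for HMGN3, which has none in GENCODE release 44 and was placed on its Ensembl canonical transcript. Of the mRNA counts of all 8, 52.02% were in the 3′ UTR in DoHH-2 (50.6–53.4) and 46.6% in GM01953 (41.4–51.8). Over all coding genes it was 26.2% and 19.8%. HMGB1 and HMGB2 weigh most in this, and without them the share was 45.6% in DoHH-2 and 37.0% in GM01953. The CDS held 12.1% of the DoHH-2 counts of the 8, against 40.4% over all coding genes. These shares follow region length as well, and the 3′ UTRs make up 13365 of the 18436 nt of the 8 mRNAs. In DoHH-2 the 3′ UTR had the fewest counts per kb, at 186 against 221 in the CDS. There were 335 around the start codon, 866 in the 5′ UTR and 881 around the stop codon. Region lengths, exon ends and copied sequence were not weighed in the comparison with all coding genes. Histone genes, which held 15.4% of all DoHH-2 counts, were not left out of it.

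In DoHH-2 the 5′ UTR share of HMGN1 and HMGN2 had intervals above those of the other 6, and the 3′ UTR held the largest share on the others. There the 3′ UTR held 51.6% of HMGB1, 55.5% of HMGB2, 63.1% of HMGB3 and 68.3% of HMGA1 counts. Among 7697 coding genes with more than 20 mRNA counts the median was 31.9%. The 5′ UTR held 60.5% of HMGN1 (51.1–69.3) and 66.5% of HMGN2 counts (59.5–73.0), where the median gene had 3.45%. Of the 7697 genes, 99.4% and 99.7% had a lower 5′ UTR share than HMGN1 and HMGN2. Much of both mRNAs is copied elsewhere in the genome, at 71.3% and 53.0% of 31-nt words. HMGN3 was led by its 3′ UTR with 32.0% and its start codon with 26.6%, and HMGN4 by its 3′ UTR with 43.4%. Per kb the 3′ UTR was the densest region on none of these 6. It had 166 counts per kb on HMGB1, 104 on HMGN3 and 164 on HMGA1, against 3029, 403 and 357 in the 5′ UTR. On HMGB3 and HMGN4 it had 37.7 and 46.9, against 286 and 257 around the start codon. On HMGB2 it had 1872, against 5040 around the stop codon. In GM01953 HMGN2 had 12 counts in the 5′ UTR, 14 at the start codon and 19 in the 3′ UTR, so that the 5′ UTR share was 26.7% (14.6–41.9) and its interval did not meet that of DoHH-2. HMGA1 had 22.8% in the 5′ UTR in DoHH-2 (18.2–27.8), against 49.5% in GM01953 (38.8–60.1). The 5′ UTR shares of HMGN2 and HMGA1 therefore lay on opposite sides when the lines were compared.

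**Figure D2:**
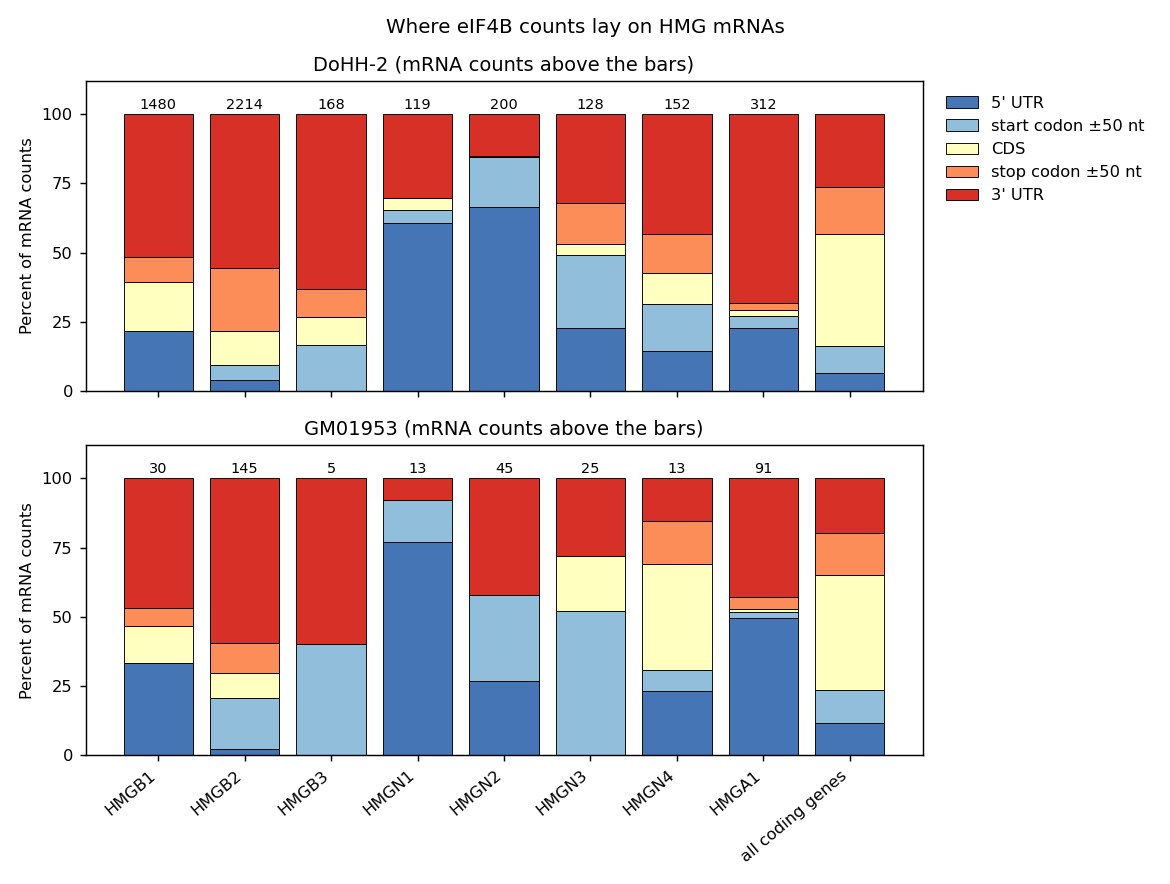
Percent of mRNA counts in 5 regions of each HMG mRNA and of all coding genes pooled, in DoHH-2 (top) and GM01953 (bottom), with the number of mRNA counts above each bar. In DoHH-2 HMGN1 and HMGN2 are led by the 5′ UTR, and the other 6 by the 3′ UTR.

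A gap at exon ends bears on these shares. Over all coding genes, the last 19 nt of exons that are followed by an intron held 7.52% of the counts per nucleotide found 59 to 100 nt before the exon end in DoHH-2, and 6.18% in GM01953. From 20 to 42 nt before the end it was 21.6% and 30.2%. For the 8 mRNAs, the last 42 nt of such exons make up 7.50% of the mRNA and held 1.49% of the DoHH-2 and 7.08% of the GM01953 counts. In HMGN1, HMGN2 and HMGN3, which have short exons, 53.5%, 62.6% and 54.2% of the CDS lies in these ends, against 19.4% in HMGB1 and 0% in HMGN4, whose CDS lies in 1 exon. Outside these ends, the 4 HMGN mRNAs together had 577 counts per kb in the 5′ UTR, 56.9 in the CDS and 43.3 in the 3′ UTR in DoHH-2. Copied sequence was not left out, and much of the HMGN1 and HMGN2 CDS is copied. HMGN4 and HMGN3, with 0.209% and 8.19% of their 31-nt words copied, differed from each other. HMGN4 had 161, 101 and 46.9 in these regions, and HMGN3 had 403, 37.9 and 104.

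Narrow peaks of HMGB1 included those at the 5′ end and in the 3′ UTR. Much of the sequence between peaks has further copies in the genome, although the 3′ UTR peak lies on copied sequence as well. Little binding between the peaks and reads that could not be placed there therefore cannot be told apart. In DoHH-2 the 5′ stretch shown above had 217 counts, or 14.7% of the mRNA counts, with 55 at a G that is nt 21 of the mRNA. The 3′ UTR stretch had 141 counts (9.53%), with its 61 counts 196 nt after the first nucleotide of the stop codon. In GM01953 the same stretches had 9 and 6 of 30 mRNA counts. Within 50 nt of the start codon, of which 65 nt lie outside exon ends, HMGB1 had 1 count in DoHH-2 and none in GM01953, and every 31-nt word that starts there has a further copy in the genome. The 5′ stretch holds purine words of the form GAGAGA or AGAGAG, searched on the mRNA strand with overlaps allowed. HMGB1 has 8 such words, and the nucleotides within 10 nt of them, 2.90% of the mRNA, held 13.2% of its DoHH-2 counts and 26.7% of its GM01953 counts, the latter being 8 counts. These counts were not divided among the words. The 5′ stretch, which holds the first word at nt 15, had 217 DoHH-2 counts, and there were 196 near all 8 words. The share may therefore rest on this 1 peak. The other members with such words had few DoHH-2 counts near them. For HMGB2 1.80% of the mRNA held 0.497% of the counts and for HMGN4 2.68% held 1.97%, while 2.05% of HMGN1 and 4.02% of HMGN2 held none. HMGB3, HMGN3 and HMGA1 have no such word, while 74.8% of all coding mRNAs have at least 1.

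HMGB2 was bound mainly from just after its stop codon into its 3′ UTR. The stretch after the stop codon had 373 counts in DoHH-2 (16.8%), with 58 at a G 39 nt after the first nucleotide of the stop codon, and 3 counts in GM01953. The 50 nt that follow the stop codon held 460 counts in DoHH-2 and 4 in GM01953. The region around the stop codon held 22.99% of HMGB2 counts in DoHH-2 (21.3–24.8) and 11.03% in GM01953 (6.44–17.3). Around the start codon the order was reversed, at 18.6% in GM01953 (12.6–25.9) and 5.69% in DoHH-2 (4.76–6.74). The GM01953 start codon counts were led by a G with 14 counts that lies 38 nt after the A of the start codon. The proximal and distal 3′ UTR stretches had 216 and 311 counts in DoHH-2 and 23 and 19 in GM01953, so these were shared.

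**Figure D3:**
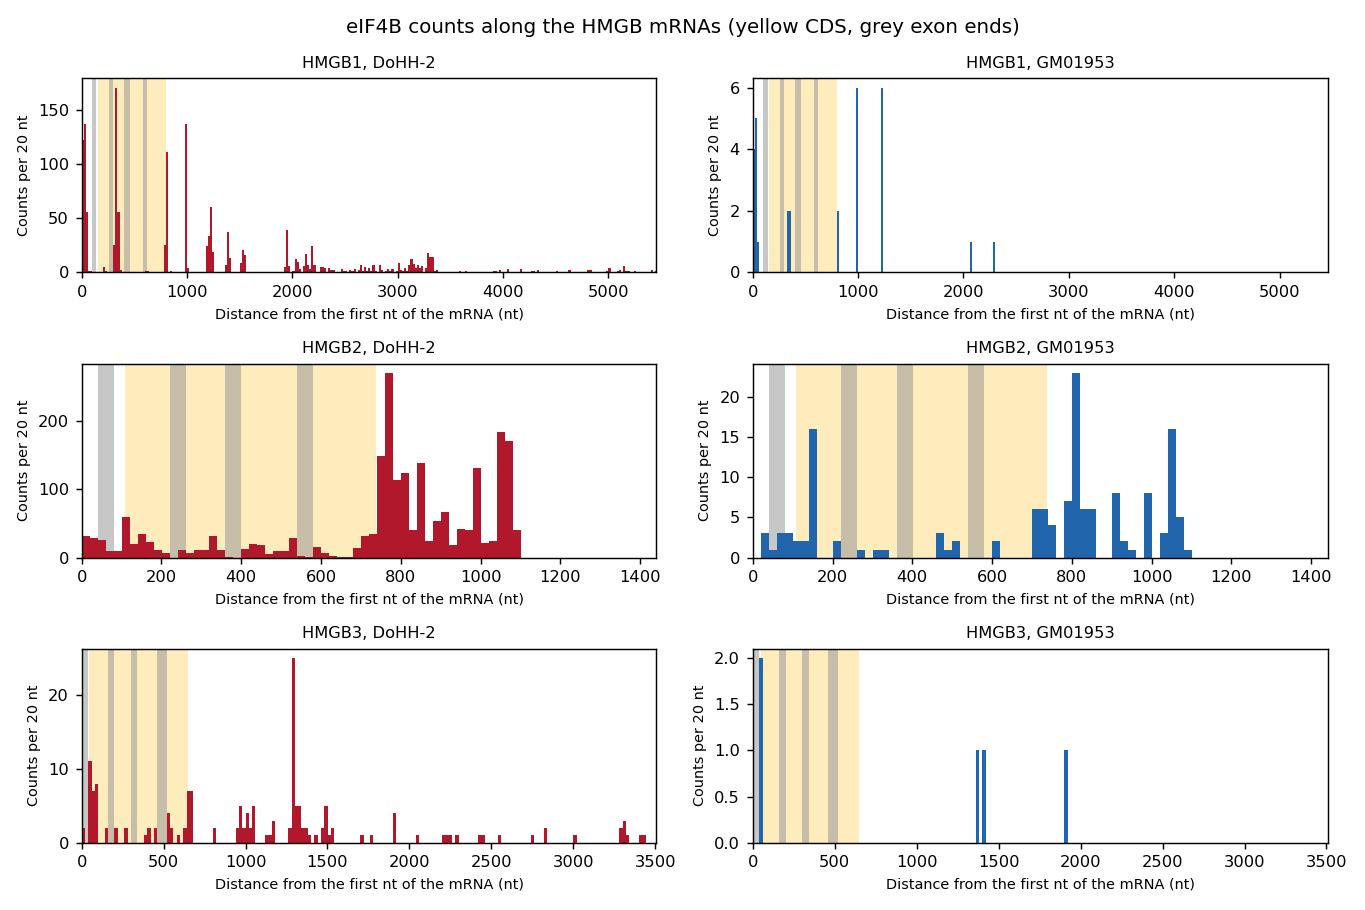
Counts per 20 nt along the HMGB1, HMGB2 and HMGB3 mRNAs in DoHH-2 (left) and GM01953 (right), against the distance from the first nucleotide, with the CDS in yellow and the last 42 nt of exons in grey. HMGB1 has narrow peaks with much copied sequence between them, and HMGB2 counts end after nt 1095 of its 1441 nt in both lines.

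No count lay in the last part of the HMGB2 mRNA. The last position with a count was nt 1095 in DoHH-2 and nt 1093 in GM01953, which leaves 346 and 348 nt of the MANE Select transcript without a count. Only 11 of the 31-nt words there have a further copy in the genome. Another annotated HMGB2 transcript, ENST00000511316.1, ends at nt 1112 on this scale. HMGB1 had counts up to its last nucleotide in DoHH-2, but 95% of them were within 3294 of 5456 nt, and HMGN4 had none in its last 684 of 1943 nt. These reaches were chosen for description after the profiles were seen.

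The acidic tails of the HMGB proteins are encoded by runs of Asp and Glu codons. The tail of 30 residues in HMGB1 is encoded by 90 nt, that of 22 in HMGB2 by 66 nt and that of 20 in HMGB3 by 60 nt. In DoHH-2 the tail of HMGB1 had 25 counts, or 27.8 per 100 nt, against 60.6 in the rest of the CDS outside exon ends, a ratio of 0.458 (0.291–0.692). This direction rests on 1 narrow peak, since without the 30 nt of the rest that held the most counts the rest had 6.27 per 100 nt and the ratio was 4.43 (2.44–8.05). HMGB2 had 57 counts in its tail, or 86.4 per 100 nt against 72.2, a ratio of 1.20 (0.886–1.59), which was 1.35 (0.995–1.81) without such a window. HMGB3 had 4, a ratio of 0.726 (0.188–2.02) that became 1.11 (0.280–3.26). In GM01953 the HMGB2 tail had 12 counts and a ratio of 2.55 (1.19–5.11), or 5.66 without the window, and 6 of the 12 were at 1 nucleotide, and the tails of HMGB1 and HMGB3 had none. Leaving out the densest window was chosen after the values were seen, and it lowers the density of the rest by its construction. All 31-nt words of the HMGB1 tail have a further copy in the genome, against 12.1% of those of HMGB2. Most of the rest of the HMGB1 CDS is copied as well. Neither HMGB1 ratio can therefore tell binding apart from where reads could be placed.

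Among the nucleosome-binding HMGN proteins, the mRNAs of HMGN1 and HMGN2 had dense 5′ UTR stretches in DoHH-2, and those of HMGN3 and HMGN4 had theirs just before the start codon. The HMGN2 5′ UTR stretch had 74 of 200 DoHH-2 mRNA counts (37.0%), and the GM01953 stretch in the 3′ UTR had 17 of 45 (37.8%) and 9 in DoHH-2. The HMGN1 stretch had 34 counts (28.6%) and that of HMGN3 had 30 (23.4%), with 10 at a U that is 34 nt before the start codon. The HMGN3 stretch also led in GM01953, with 10 of 25 counts. The densest HMGN4 stretch had 19 of 152 DoHH-2 counts. HMGN2 had no CDS count in either line, in a CDS region of 169 nt of which 63 nt lie outside exon ends. All of this region, inside and outside exon ends, has further copies in the genome. A lack of binding and reads that could not be placed therefore cannot be told apart there.

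HMGA1 was bound at both ends. Its 3′ UTR stretch had 47 of 312 mRNA counts in DoHH-2 (15.1%) and 2 of 91 in GM01953, while its 5′ UTR stretch had 24 in GM01953 (26.4%) and 32 in DoHH-2 (10.3%). The highest nucleotide was a C in the 5′ UTR with 11 counts in DoHH-2 and, 2 nt before it, a G with 13 in GM01953.

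**Figure D4:**
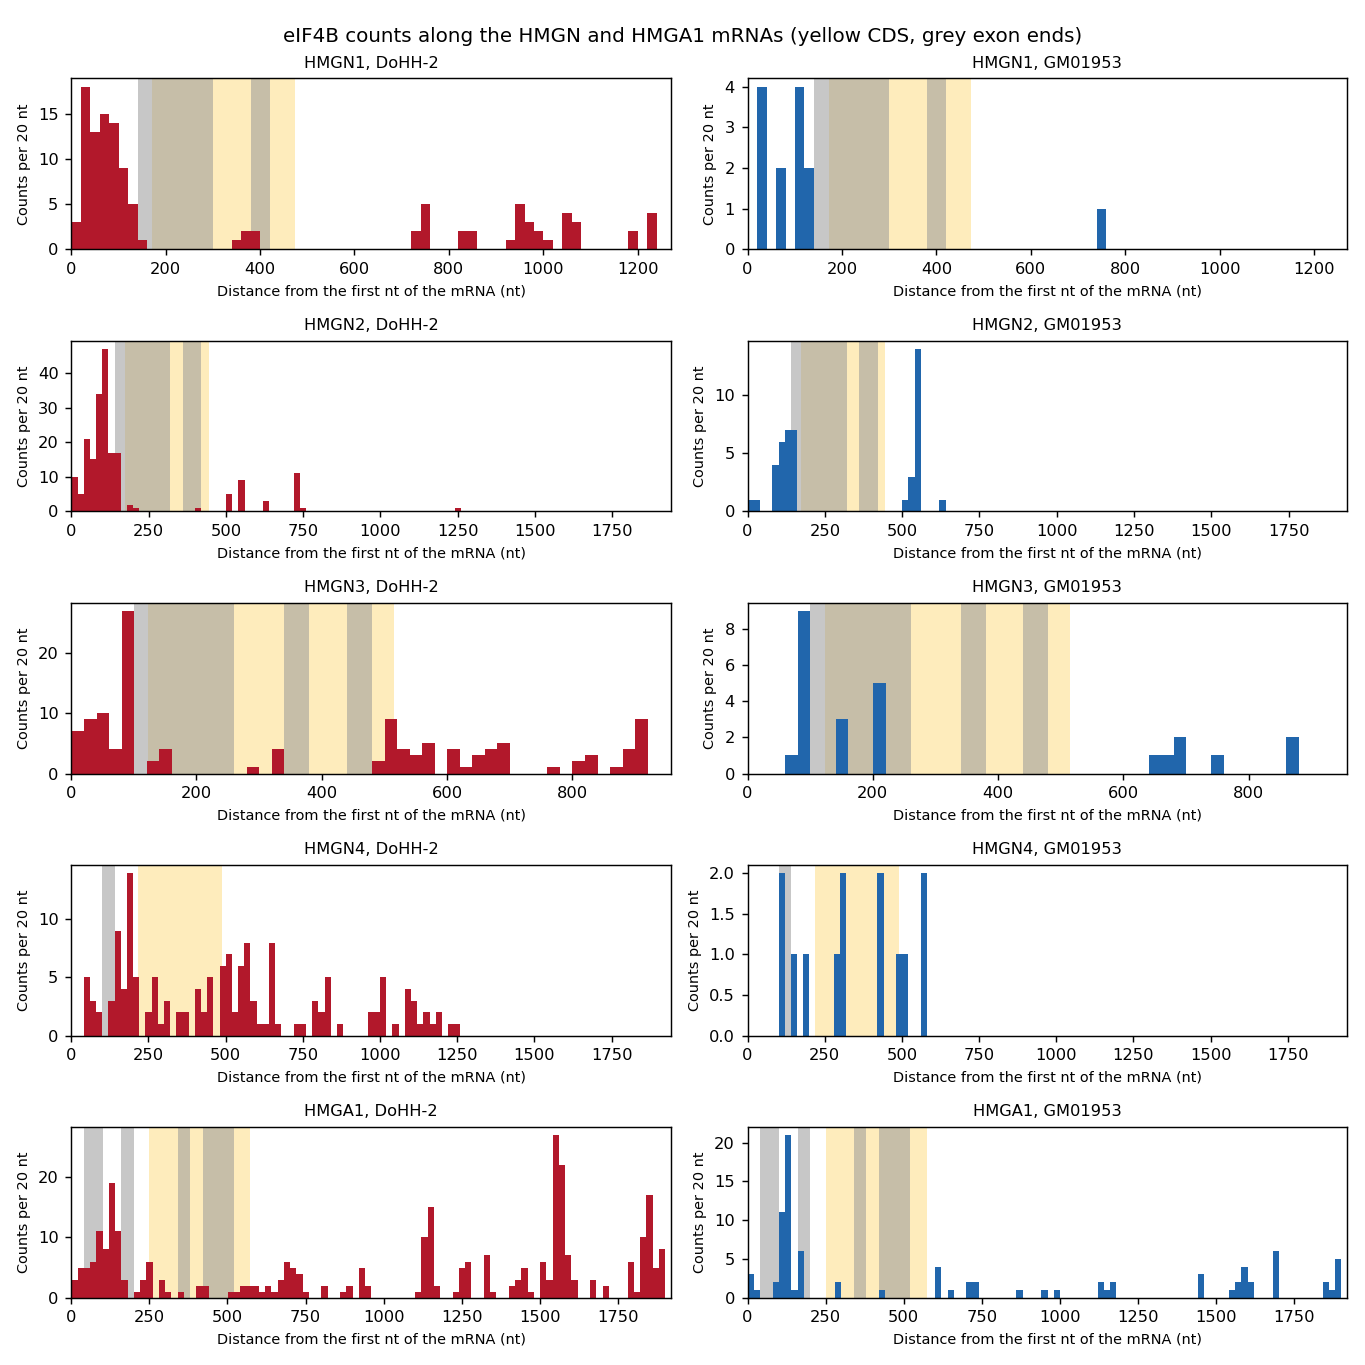
Counts per 20 nt along the HMGN1 to HMGN4 and HMGA1 mRNAs in DoHH-2 (left) and GM01953 (right), against the distance from the first nucleotide, with the CDS in yellow and the last 42 nt of exons in grey. HMGN1 and HMGN2 counts are densest before the CDS, and those of HMGA1 lie at both ends.

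At the cross-linked nucleotide itself, U was found for 48.0% of member counts in DoHH-2 (46.6–49.4) and A for 11.3%. With each mRNA weighted by its DoHH-2 counts, U makes up 28.5% and A 30.6% of these mRNAs. In GM01953 U was found for 35.4% (30.5–40.6) and G for 35.1% (30.3–40.3). All coding genes had 42.2% U in DoHH-2 and 39.7% in GM01953. U led on HMGB1 with 49.1%, HMGB2 with 51.8% and HMGB3 with 84 of 168 counts, and also on HMGN3 with 47.7%, HMGN4 with 43.4% and HMGA1 with 38.5%. On HMGN2 C led with 35.5%, before G with 29.0% and U with 26.0%, and on HMGN1 C and G had 32.8% each and U 28.6%. Preference of UV cross-linking for U and preference of eIF4B cannot be told apart here.

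Many HMG genes have processed pseudogenes, and a read from sequence that occurs elsewhere in the genome cannot be placed with certainty. Further exact copies exist for 71.3% of the 31-nt words of HMGN1, 53.0% of HMGN2, 47.8% of HMGA1, 41.8% of HMGB1 and 31.03% of HMGB3. For HMGN3, HMGB2 and HMGN4 it was 8.19%, 3.76% and 0.209%. Outside exon ends, DoHH-2 counts per kb on copied sequence were 0.111 times those on single-copy sequence for HMGN1 (0.0691–0.172), 0.167 for HMGA1 (0.117–0.232), 0.184 for HMGN2 (0.120–0.273) and 0.838 for HMGB1 (0.752–0.933). The HMGB1 value pools unlike parts of the mRNA, since 95% of its counts lay within 3294 of 5456 nt. Only 325 words in the 3167 nt after nt 2289 have a further copy. The ratio was not computed for the denser part alone. The totals of HMGN1, HMGN2 and HMGA1 thus come mostly from single-copy sequence. Much of their coding sequence and parts of their 3′ UTRs are copied, and little binding and reads that could not be placed cannot be told apart there. The same holds for much of the HMGB1 coding sequence and the nearer part of its 3′ UTR. The ratios between the lines kept their side of 2-fold on single-copy sequence for 7 of the 8, with 5.18 for HMGB1, and HMGB3 came to 2.04 (0.851–6.39) from 5 GM01953 counts.

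**Figure D5:**
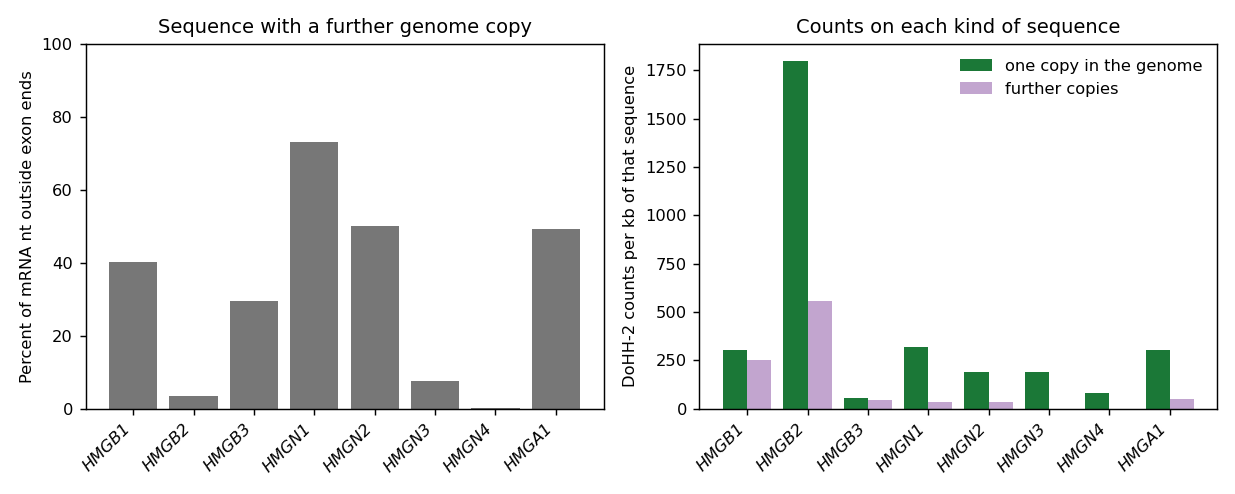
Percent of each HMG mRNA outside exon ends that is followed by a 31-nt word with a further genome copy (left), and DoHH-2 counts per kb on sequence with one copy and with further copies (right). HMGN1, HMGN2 and HMGA1 have few counts per kb on copied sequence. HMGB1 has nearly as many as on single-copy sequence when its sparse and mostly single-copy distal 3′ UTR is pooled with the rest.

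Counts were also listed for pseudogenes named after these genes. In DoHH-2, 24 HMGB1 pseudogenes had 278 counts, of which HMGB1P5 had 158, and 176 of the 278 were at positions followed by a word identical to the HMGB1 mRNA. In GM01953, 4 had 11 counts. The 15 HMGN2 pseudogenes had 28 counts in DoHH-2, and those of the other members had 10 or fewer each. Whether these reads came from the parent mRNAs was not tested.

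Of the related genes, 15 of 23 had at least 20 counts in both lines together, and 3 were past 2-fold, all towards DoHH-2, where 32.9% of all genes tested were. These were SOX4, a transcription factor with an HMG box (1522 and 46 counts, ratio 2.72, 2.03–3.73), LEF1, which acts in Wnt signalling (337 and 7, ratio 3.96, 1.90–9.92), and SMARCE1, a subunit of BAF chromatin remodellers (243 and 9, ratio 2.22, 1.15–4.91). SSRP1, the HMG-box subunit of the FACT histone chaperone, had 748 and 37 counts, and PBRM1, a subunit of PBAF, had 522 and 24. The interval lay above 1 for 6 of the 15, beside 18.5% of all genes tested, and below 1 for none, beside 14.6%, and the median ratio was 1.25, beside 1.29 over all genes tested. The minimum of 20 counts, reached mostly through the deeper DoHH-2, leaves out genes with few counts there. Some related genes left out by it had intervals below 1, on few counts. In DoHH-2 11 of the 23 were bound, and in GM01953 1, beside 22.0% and 7.28% of all genes with a position. The HMGB1 receptors AGER and TLR4 had 4 and 18 counts in DoHH-2 and 4 and 0 in GM01953, too few to compare. Both receptors are named outside the rule for named genes, with their values known.

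The genes most like HMGB2 and HMGB1 in their spread over the 5 regions were sought among 920 other coding genes with at least 100 mRNA counts in DoHH-2 and 20 in GM01953. The measure was the sum of absolute differences over 10 percentages, 5 per line. Nearest to HMGB2 were OST4 (46.1), SERF2 (55.6) and ARGLU1 (56.5), where the median gene was at 216. Nearest to HMGB1 were GRB2 (47.3), MLF2 (54.4) and CAB39 (58.4), with a median of 193.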

How the data were processed

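The iCLIP cDNA counts at each position were made and deposited by the authors, who removed PCR duplicates with BBMap dedupe, demultiplexed with Je, mapped to GRCh38 with HiSat2 and counted with iCount after pooling the replicates. The FDR of each position, a q-value found by permuting counts within the gene, was deposited with them. Tool versions and the annotation release are not given in the sources used here. The deposited counts are raw.

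Positions were read as counted from 0 and summed once per gene. They were placed on GENCODE release 44 transcripts. A position at the last intron nucleotide before an exon was moved to the end of the exon before it. CPM used all counts of a line. Intervals were Poisson for counts, Clopper-Pearson for shares and conditional binomial for ratios, with scipy 1.17.1. The scripts were tested on simulated data.

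All 8 members, and of 23 related genes those past 2-fold or among the 3 highest in DoHH-2, were named. Another related gene and 1 stretch of sequence, which held more counts than those shown for its mRNA, are not reported here. Members and lists were chosen with earlier results of these data known. Alternatives were positions with an FDR below 0.05 or at least 2 counts, other denominators, transcripts, codon regions and thresholds, single-copy sequence, and tail densities without a peak.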

Additional observations from a re-analysis of the deposited data

How the results depend on the processing

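No paired analysis was possible because the tables hold pooled replicates, and for the same reason none could be left out. The share of the 8 mRNAs in all counts was 0.447% in DoHH-2 and 0.270% in GM01953 at positions with an FDR below 0.05, 0.200% and 0.202% on single-copy sequence, 0.300% and 0.258% of counts outside histone genes and 0.283% and 0.276% of counts assigned to a gene. At positions with at least 2 counts it was 0.380% and 0.221%. In GM01953 7 of the 8 had at least 1 site and 2 had more than 50 counts at sites. The 3′ UTR share in DoHH-2 was 58.3% with codon regions of 25 nt. The alternatives chosen after seeing the data were the share without HMGB1 and HMGB2, which was 45.6% and 37.0%, single-copy ratios, and tail densities without the densest 30 nt of the rest of the CDS. The tail density ratio of HMGB1 in DoHH-2 was 0.715 with each position counted once and reversed to 4.43 without those 30 nt, that of HMGB2 in GM01953 was 5.27 at positions with an FDR below 0.05 and 5.66 without the 30 nt, and that of HMGB3 in DoHH-2 was 0 at positions with an FDR below 0.05, with at least 2 counts and on single-copy sequence. Between 4 and 5 members were past 2-fold under every count filter and denominator tried. At positions with an FDR below 0.05 they were HMGB1, HMGB2, HMGN4, HMGN3 and HMGA1, so HMGN2 was lost, as it was with at least 2 counts. The ratio between the lines kept its direction in every alternative for the 6 members other than HMGB3 and HMGN4. HMGB3 turned to 0.776 with at least 2 counts, and HMGN4 to 0.965 with counts assigned to a gene and 0.962 on single-copy sequence. Other causes were not tested. Depth limits HMGB3, HMGN1 and HMGN4 most, with 13 to 19 counts in GM01953.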

Other observations

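Some counts of the 8 genes lay off the transcript used. HMGB1 had 171 such counts in DoHH-2, of which 81 were in exons of other annotated transcripts and 74 in introns. HMGN1 had 52, 49 of them in exons of other transcripts, which is a larger part of its 171 counts than for any other of the 8 in DoHH-2, and HMGB2 had 60 of 2274. In GM01953 HMGB3 had 8 of its 13 counts off the transcript.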
